A study of Mus musculus with 42 samples.

Results

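The 16 homozygous *Ccdc40* mutants were compared by the direction in which their heart tube looped, and the quantity compared was the asymmetry of expression between the right and the left heart field. The members were chosen by the labels alone, which give the genotype Ccdc40 lnks/lnks and the looping direction of each embryo. There were 5 mutants with inverted looping (3 male and 2 female, embryos 2_7, 4_6, 10_3, 18_2 and 32_2) and 11 with rightward looping (6 male and 5 female), which makes 32 of the 42 libraries and 16 of the 21 embryos. The wild types (Ccdc40 +/+, rightward looping) were 5 embryos, 4 male and 1 female, and served only as a reference. The study further divides the rightward mutants by their expression into 5 embryos with situs solitus and 6 with heterotaxy, so the rightward group is mixed. The labels do not give that division, and it was not used here. Every mutant carries the same chemically induced nonsense allele of *Ccdc40*, and none of them differs from the others in any agent or age named in the labels. All embryos were taken at embryonic day 8.5 at a looping stage called E8.5i. The heart tube was cut away, and by the study's account the tissue kept was largely, not wholly, heart field. Markers of heart tube muscle were still present in every mutant library, as given further on. Each library is the bulk RNA of the left or the right side of that tissue in 1 embryo. In such bulk samples, fewer cells of a type and less RNA per cell cannot be told apart.

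*Ccdc40* encodes part of the molecular ruler of motile cilia, whose beating in the node drives the fluid flow that biases left-right patterning. On the side that is to become left, the TGF-beta family ligand NODAL signals in the lateral plate mesoderm, where its targets include *Lefty2*, a secreted feedback inhibitor of NODAL. The heart tube then loops, normally to the right, while progenitors of the heart field behind it are added at its poles. Which genes take part in the asymmetry of these progenitors when looping is inverted is the question that the comparison addresses.

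Library totals of the mutants lay between 36073684 and 62970327 counts with a median of 42789623, at 42475654.5 in the inverted and 43092842.5 in the rightward group. *Ccdc40* itself was at 8.90 to 14.8 CPM (counts scaled to the effective library size) in the mutant libraries and at 15.3 to 26.3 CPM in the wild types, without overlap. The asymmetry of *Ccdc40* differed by −0.05 between the groups of mutants (SE 0.15, adjusted p = 0.934). Throughout, asymmetry is the log2 ratio of right over left, positive for right-sided genes, and the difference is that of the inverted minus the rightward mutants from a fit with the embryo as a block (quasi-likelihood F test of edgeR, p adjusted over all genes tested by Benjamini and Hochberg, called when under 0.05).

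Asymmetry differed between the inverted and the rightward mutants at 242 of 25810 genes tested (0.938%), and nearly all of them went the same way. The difference was positive, that is more right sided in inverted mutants, at 227 genes (0.88%) and negative at 15 (0.0581%), while 3167 genes had an unadjusted p under 0.05. Of the 242 genes, 222 are protein coding and 15 are lncRNAs. The log2 ratios of the 5 inverted and the 11 rightward embryos did not overlap at all for 102 genes tested (0.395%), and 72 of these were among the genes called, 69 with a positive and 3 with a negative difference. In the test of right against left within each group, 525 genes were asymmetric in the inverted mutants (2.03%), 464 toward the right and 61 toward the left. The rightward mutants had 5 (0.0194%), all left sided, although they were the larger group, and the study divides that group into situs solitus and heterotaxy. Without the embryo as a block 19 genes were called, and DESeq2 called 814 with a positive difference at 81.9% of them beside 93.8% by edgeR. The count of 242 was 72 without the inverted mutant 18_2, 73 without 32_2 and 114 without 4_6, and 563 without the rightward 19_4, 138 without 18_1, 147 without 17_1, 150 without 23_3, 156 without 3_7 and 158 without 19_6, and in all 16 such fits at least 85.3% of the calls were positive. The count of 525 was 49 without 32_2, 76 without 18_2 and 200 without 4_6.

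The 242 genes were thus mostly genes with an asymmetry in the inverted group and a fitted value near 0 for the rightward group, as the plot of both asymmetries shows. A fitted value near 0 covers a group as a whole and can hold embryos of both sides. *Actn2*, at 0.009 in the rightward group, had rightward mutants on both sides of 0, as given further on. The size of the asymmetry had a median of 0.72 among them in inverted and of 0.14 in rightward mutants, beside 0.17 and 0.07 over all genes tested. It was the larger one in inverted mutants for 237. Right and left differed past the threshold for 210 of them in the inverted mutants and for 5 in the rightward mutants. The sign was opposite in the 2 groups for 219 genes, but only 36 were beyond 0.5 in both groups. For 97 the fitted value of the rightward group, though not each of its embryos, was within 0.1 of symmetry. Since the difference was computed from both asymmetries, these counts describe the genes called and test nothing.

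**Figure D1:**
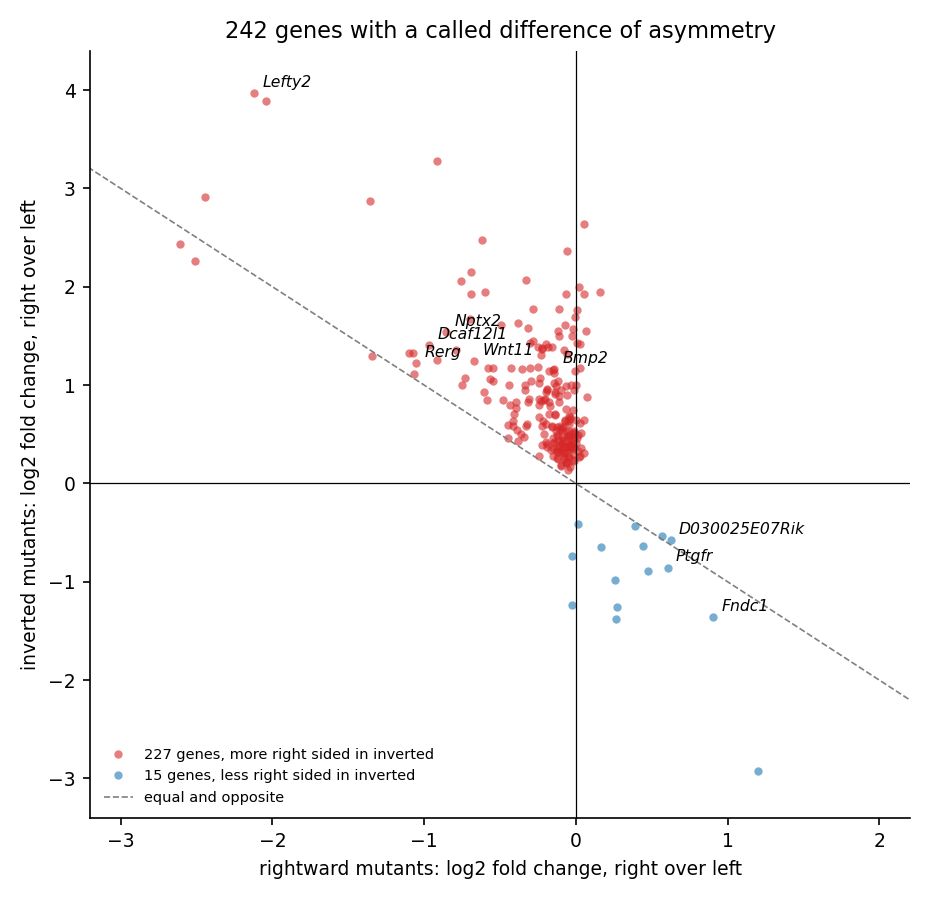
Asymmetry (log2 ratio of right over left from the fit) in rightward mutants on the horizontal axis and in inverted mutants on the vertical axis, 1 point for each of the 242 genes whose asymmetry differed between the groups. The dashed line marks equal and opposite asymmetry, and most points stand above 0 on the vertical axis while staying close to 0 on the horizontal one.

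*Lefty2* was higher on the right in each inverted mutant and higher on the left in each rightward mutant, with wide spread. Its log2 ratios in the inverted mutants were 2.35 (10_3), 2.60 (32_2), 2.77 (4_6), 4.20 (18_2) and 6.85 (2_7), and in the rightward mutants they lay at −6.82 at the lowest, −1.79 at the median and −0.96 at the highest. Levels were low, with 0.10 to 0.49 CPM on the left and 1.55 to 28.1 CPM on the right of inverted mutants. The highest value belonged to 2_7 alone, since the other 4 reached 3.57 CPM at most. In rightward mutants the left had 1.14 to 15.6 CPM and the right up to 3.13 CPM, with a count of 0 on the right of 2_2, which allows up to 3 counts. The groups did not overlap, and the difference was 6.09 (SE 0.93, adjusted p = 0.0033). Its exact two-sided permutation p over the embryos was 0.000229, the smallest that the 4368 splits of 5 against 11 allow. *Gm57186*, a gene on the opposite strand that shares 611 bases (21%) of the exons of *Lefty2*, was itself called with a difference of 5.04, and because the strand setting of the counts is not given, reads of the 2 genes cannot be told apart. *Lefty1* is a neighbour of *Lefty2* with a similar sequence, so the split of reads between them may be uncertain as well, which was not measured.

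Other members of the pathway described here did not pass the test of edgeR with every mutant in the fit. Of 22 members of the NODAL list that were tested, 1 was called (4.55%, beside 0.938% of all genes tested), which was *Lefty2*, while DESeq2 called 5 (and 814 genes in all), with *Cfc1*, *Furin* and *Skil* higher and *Ism1* lower besides (adjusted p of 0.0092, 0.010, 0.010 and 0.042). The median difference of the list was 0.21 beside −0.01 over all genes tested. The members that follow were chosen after their values were seen, for their place in the pathway. *Nodal* itself was low, at 0.205 CPM or less in every mutant library, and its difference of 2.21 had a SE of 0.76 and an adjusted p of 0.209. Its log2 ratio was below 0 in all 11 rightward mutants (−2.25 to −0.29), whereas the inverted mutants had values on both sides of 0, from −1.51 to 1.09. *Lefty1*, the midline inhibitor, had a difference of 0.17 (SE 0.83). *Cfc1*, the co-receptor of NODAL, had 0.96 (SE 0.25, adjusted p = 0.080), *Furin*, a protease that matures NODAL, had 0.57 (adjusted p = 0.106) and *Skil*, a brake on SMAD proteins, had 0.42 (adjusted p = 0.105). *Ism1*, which encodes a secreted inhibitor of NODAL, was left sided in all 5 inverted mutants (−1.17 to −0.15) and ranged from −0.73 to 1.03 in rightward mutants, and its difference of −0.80 (SE 0.25) had an adjusted p of 0.148.

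*D030025E07Rik*, a lncRNA chosen after its values were seen, was less right sided in inverted mutants. Its log2 ratios in inverted mutants were −0.85 (10_3), −0.81 (4_6), −0.64 (18_2), −0.55 (32_2) and −0.03 (2_7), and in rightward mutants they ranged from −0.99 over a median of 0.66 to 1.45. All 5 inverted mutants were left sided and 10 of 11 rightward mutants right sided, with 2_2 as the exception and an overlap for that reason. The difference was −1.20 (SE 0.27, adjusted p = 0.039), and 6 of the 16 fits that left out 1 mutant called it, with an adjusted p of 0.126 at the highest. With the covariates described further on, it was −1.86 (adjusted p = 0.011) with the muscle sum and −1.44 (adjusted p = 0.112) with the neural tube sum. In males alone it was −1.19 (adjusted p = 0.249).

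**Figure D2:**
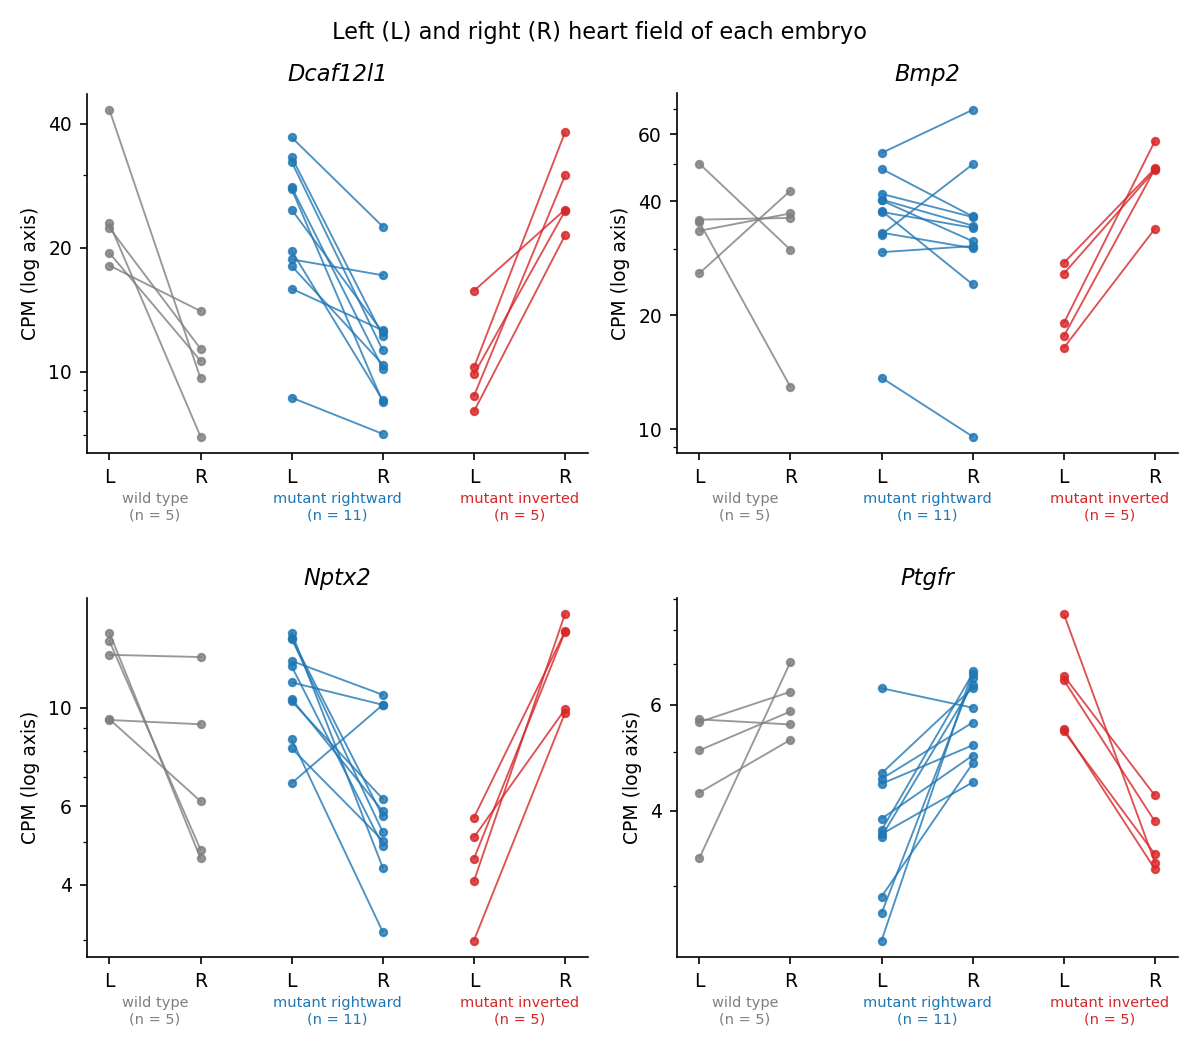
Level in CPM (logarithmic axis) on the left and on the right of each embryo, joined by a line, for *Dcaf12l1*, *Bmp2*, *Nptx2* and *Ptgfr* in wild types, rightward mutants and inverted mutants. The lines of *Dcaf12l1* rise in all 5 inverted mutants and fall in every other embryo, those of *Bmp2* and *Nptx2* rise in all 5 inverted mutants, and those of *Ptgfr* fall in all 5.

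The promoter of *Lefty2* is shown because this gene changed sides, and those of *Ccn4* and *Tnni3* because they stand for the progenitor and the muscle genes described further on and hold matches to the motifs searched. They are given 5′ to 3′ on the strand of the gene from the GRCm39 genome, from 250 bases before to 50 bases after the start of the canonical transcript, and capitals mark a match. The motifs searched on both strands were TGTGGATT and TGTGTATT (FOXH1, a partner of the SMAD proteins of NODAL signaling), CTTTGA (TCF and LEF, the factors of WNT signaling) and AGGTGTGA (T-box factors).
Lefty2, chr1:180720385-180720684, plus strand: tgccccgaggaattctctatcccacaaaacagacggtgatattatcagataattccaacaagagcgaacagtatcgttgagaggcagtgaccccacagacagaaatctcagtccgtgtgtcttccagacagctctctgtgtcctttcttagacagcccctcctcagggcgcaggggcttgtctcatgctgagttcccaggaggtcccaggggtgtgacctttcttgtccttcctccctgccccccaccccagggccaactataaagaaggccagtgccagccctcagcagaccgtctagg
Ccn4, chr15:66762909-66763208, plus strand: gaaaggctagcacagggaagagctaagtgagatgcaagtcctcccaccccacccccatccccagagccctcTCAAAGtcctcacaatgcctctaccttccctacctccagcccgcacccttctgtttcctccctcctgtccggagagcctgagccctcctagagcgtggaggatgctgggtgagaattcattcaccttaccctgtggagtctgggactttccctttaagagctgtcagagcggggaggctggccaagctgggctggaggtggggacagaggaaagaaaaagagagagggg
Tnni3, chr7:4525478-4525777, minus strand: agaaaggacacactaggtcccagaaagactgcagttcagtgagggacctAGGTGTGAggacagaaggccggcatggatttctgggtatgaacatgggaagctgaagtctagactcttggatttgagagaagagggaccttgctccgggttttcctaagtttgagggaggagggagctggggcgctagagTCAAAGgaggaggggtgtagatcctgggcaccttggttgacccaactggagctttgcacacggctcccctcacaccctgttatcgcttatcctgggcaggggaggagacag
*Ccn4* held CTTTGA on the reverse strand at −179 from the start, and *Tnni3* held AGGTGTGA at −201 and CTTTGA on the reverse strand at −61. *Lefty2* had no match, which says only that these letters are not in this window. Over all 25632 promoters of tested genes, TGTGGATT was found in 0.726% and in 0.826% of those of called genes, TGTGTATT in 0.983% and 1.65%, CTTTGA in 15.1% and 14.5%, and AGGTGTGA in 0.999% and 1.65%.

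Among BMP genes, 2 ligands and a regulator were more right sided in inverted mutants. The BMP list had 3 of 31 tested members called (9.68%, beside 0.938% of all genes tested), and its median difference was 0.23. DESeq2 called 6 members, 5 of them positive, beside 814 of all 25810 genes. *Bmp2*, a ligand that specifies the atrioventricular canal, had 16.4 (10_3), 17.6 (32_2), 19.1 (18_2), 25.8 (4_6) and 27.5 CPM (2_7) on the left of inverted mutants and 33.8, 48.7, 57.6, 48.3 and 48.8 CPM on the right in the same order. In rightward mutants its left had 13.7, 37.7 and 53.6 CPM at the lowest, median and highest, and its right had 9.57, 34.0 and 69.7 CPM. The log2 ratio was 0.83 to 1.59 in the 5 inverted mutants and −0.64 to 0.61 in the 11 rightward mutants, so that the groups stood apart while the rightward mutants were spread around symmetry. The difference was 1.31 (SE 0.18, adjusted p = 0.0014). *Bmper*, which encodes a secreted BMP-binding protein, had log2 ratios of 0.78 (4_6), 0.99 (32_2), 1.07 (10_3), 1.21 (18_2) and 1.23 (2_7) against −1.12 to 0.48 in rightward mutants, 10 of which were below 0. Its difference of 1.62 (SE 0.20) had an adjusted p of 0.00045. *Bmp4* followed with 0.94 (SE 0.22, adjusted p = 0.045), its groups overlapping, and it was called in 6 of the 16 fits without 1 mutant (adjusted p of 0.174 at the highest). With the summed heart muscle markers as a covariate, described further on, *Bmp2* was at 0.81 (adjusted p = 0.103) and *Bmp4* at 0.32 (adjusted p = 0.856), and *Bmp4* was at 0.60 (adjusted p = 0.646) with the neural tube sum. A part of its exons, 22.5%, is shared with *Gm15222*.

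In the WNT pathway, 1 of 52 ligands, receptors and secreted modulators was called by edgeR (1.92%) and 1 of 22 targets and feedback genes (4.55%), beside 0.938% of all genes tested, with median differences of 0.02 and −0.11. DESeq2 called 4 of the former, 3 positive and 1 negative, and 2 of the latter, 1 in each direction, beside 814 of all 25810 genes. At an unadjusted p under 0.05 the former had 8 positive and 8 negative differences and the latter 3 and 4. All 25810 genes held 1945 positive and 1221 negative ones at that p. *Wnt11*, a ligand of noncanonical signaling, had log2 ratios of 0.93 (10_3), 0.97 (4_6), 1.12 (18_2), 1.40 (2_7) and 1.71 (32_2) in inverted mutants. In rightward mutants it had −2.63 at the lowest, −0.68 at the median and 1.08 at the highest, and 10 of the 11 were left sided. The exception was 19_4, which overlapped the inverted group. The difference was 1.92 (SE 0.38, adjusted p = 0.020), with an adjusted p of 0.058 without 18_2 and 0.083 without 32_2, and it was 0.89 (adjusted p = 0.759) with the muscle sum as a covariate. *Ccn4*, a matricellular WNT target of cardiopulmonary progenitors, had ratios of 0.38 (4_6), 0.57 (2_7), 1.18 (32_2), 1.27 (10_3) and 1.59 (18_2) against −1.50, −0.50 and 0.52 at the lowest, median and highest of the rightward mutants, and its difference was 1.44 (SE 0.29, adjusted p = 0.022), with an adjusted p of 0.094 without 18_2 and 0.083 without 32_2, and it was 0.78 (adjusted p = 0.736) with the muscle sum as a covariate. The groups overlapped, and all 5 wild types were left sided for *Ccn4*, as were 8 of the 11 rightward mutants.

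The WNT genes that the study names besides did not pass the test of the difference by edgeR or by DESeq2 with every mutant in the fit. The study drew its own results from clusters of embryos, with wild types in that of situs solitus, which are not the groups compared here. *Sfrp2*, a secreted WNT inhibitor, had an adjusted p of 0.032 for right against left in the inverted mutants alone at −0.97, with all 5 embryos below 0. Since rightward mutants were at −0.16, its difference of −0.80 (SE 0.27) came to an adjusted p of 0.196. *Wnt16* had a difference of −0.95 (SE 0.42, adjusted p = 0.362) and *Fzd10*, a receptor, −0.88 (SE 0.30, adjusted p = 0.195). *Wnt2*, a ligand of cardiopulmonary progenitors, had 0.74 (SE 0.35, adjusted p = 0.400), and *Trabd2b*, which encodes a protease that inactivates WNT ligands, had 0.51 (SE 0.24, adjusted p = 0.393). *Sfrp2* and *Fzd10* share 21% and 30.6% of their exonic bases with *Gm26771* and *Fzd10os*.

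The list of cardiopulmonary progenitors and posterior second heart field had 3 of 23 members called (13%, beside 0.938% of all genes tested), which were *Osr1*, *Bmp4* and *Ccn4*. *Osr1*, a transcription factor of these progenitors, had 0.24 (10_3), 0.38 (18_2), 0.63 (32_2), 0.84 (2_7) and 0.88 (4_6) in inverted mutants, and −1.11, −0.41 and 0.65 at the lowest, median and highest of rightward mutants. Only 1_6 was right sided among the 11, at 97.5 CPM on the right, and that embryo made the groups overlap. The difference was 1.04 (SE 0.20, adjusted p = 0.019), with an adjusted p of 0.058 without 4_6 and 0.059 without 32_2, and it was 0.82 (adjusted p = 0.623) with the muscle sum and 0.84 (adjusted p = 0.370) with the neural tube sum. The median difference of the list was −0.14, with 13 members below and 10 above 0, so the members called did not share a direction with most of the list. The list of second heart field genes had 0 of 22 called by edgeR and 1 by DESeq2, and at an unadjusted p under 0.05 it had 6 positive and 3 negative differences, at a median of 0.17. All 25810 genes held 1945 positive and 1221 negative ones at that p, and DESeq2 called 814.

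Outside these pathways, the genes with the largest differences whose groups did not overlap were a mixed set. They were chosen by size among called genes with a mean of 200 counts or more in a group. *Nptx2*, which encodes a secreted neuronal pentraxin, had ratios of 0.95 (10_3), 1.38 (2_7), 1.69 (4_6), 1.69 (32_2) and 1.99 (18_2) in inverted mutants against −1.75, −0.83 and 0.58 at the lowest, median and highest of rightward mutants. Its left level of 4.48 ± 1.02 CPM in inverted mutants (SD, n = 5) was below the 11.3 ± 2.72 CPM of rightward mutants (n = 11), and its right level was above theirs at 13.1 ± 3.06 against 6.49 ± 2.60 CPM. The difference was 2.40 (SE 0.31, adjusted p = 0.00075). *Dcaf12l1* is an X-linked gene named for its likeness to a ubiquitin ligase adaptor. On the left, the 5 inverted mutants had 8.00 (10_3), 8.72 (18_2), 9.85 (32_2), 10.2 (4_6) and 15.7 CPM (2_7), and on the right they had 21.4, 29.98, 24.6, 38.2 and 24.8 CPM in the same order. The 11 rightward mutants had 8.64, 24.7 and 37.1 CPM at the lowest, median and highest on the left and 7.05, 11.3 and 22.5 CPM on the right. The levels of the groups overlapped on either side, but the ratios did not. The ratio was 0.65 (2_7), 1.31 (32_2), 1.42 (10_3), 1.78 (18_2) and 1.89 (4_6) against −1.72 to −0.13, and the gene was left sided in each of the 11 rightward mutants and the 5 wild types. Its difference was 2.38 (SE 0.26, adjusted p = 0.00015).

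*Tecrl*, which encodes a protein of the endoplasmic reticulum in heart muscle, had a difference of 1.52 (SE 0.16, adjusted p = 0.00011), with 0.86 to 1.64 in inverted and −0.71 to 0.27 in rightward mutants. *Cacna1d*, a calcium channel gene of the sinoatrial node, varied little among inverted mutants at 1.04 to 1.24 (mean 1.17 ± 0.08, SD, n = 5) and had a difference of 1.60 (SE 0.23, adjusted p = 0.0029). *Fitm1*, a gene of lipid droplets in striated muscle, had 1.60 (adjusted p = 0.0039) and *Gucy1b1*, a subunit of the nitric oxide receptor, 1.34 (adjusted p = 0.0039). *Rgs9bp*, which anchors a regulator of G proteins, had 1.44 (adjusted p = 0.0039). In these 5 genes the rightward mutants were nearer to symmetry than the inverted ones, with fitted asymmetries of −0.59 to −0.23 against 0.85 to 1.37. With the muscle sum as a covariate *Cacna1d* was at 0.86 (adjusted p = 0.110), *Fitm1* at 0.89 (adjusted p = 0.322), *Gucy1b1* at 0.76 (adjusted p = 0.316) and *Rgs9bp* at 1.17 (adjusted p = 0.316), while *Tecrl* was still called. *Cacna1d* and *Fitm1* share 9.72% and 18.7% of their exonic bases with *Chdh* and *Gm15932*.

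**Figure D3:**
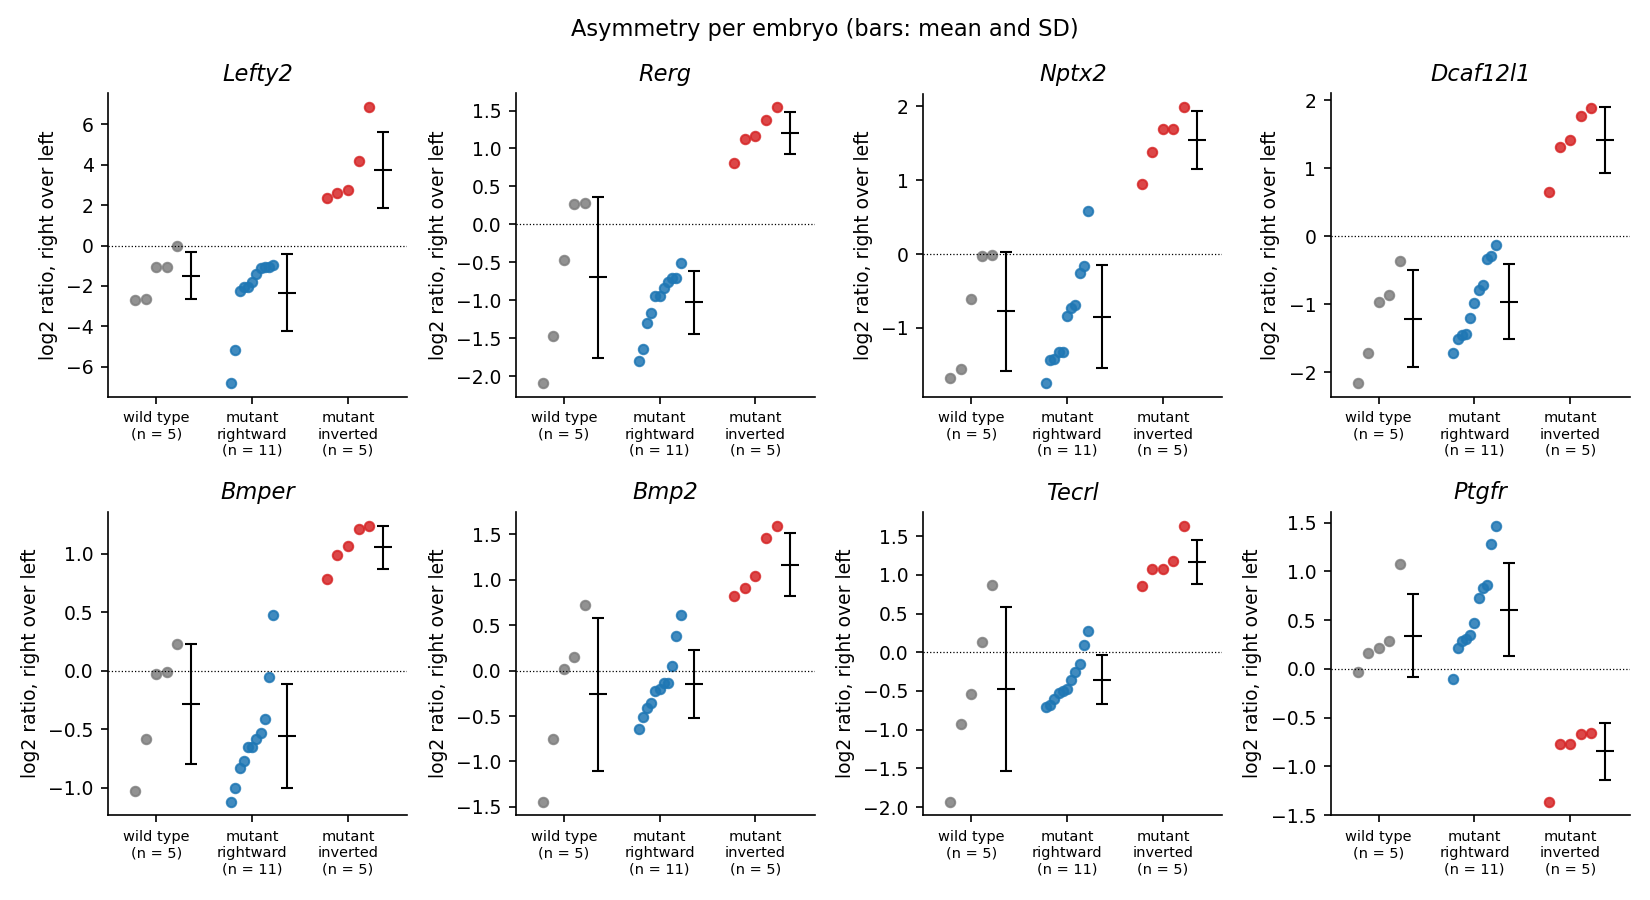
Log2 ratio of right over left in CPM, 1 point per embryo, for *Lefty2*, *Rerg*, *Nptx2*, *Dcaf12l1*, *Bmper*, *Bmp2*, *Tecrl* and *Ptgfr* in inverted mutants, rightward mutants and wild types, with bars for the mean and SD of each group. Inverted and rightward mutants do not overlap in any of the 8 genes, and *Lefty2*, *Rerg* and *Dcaf12l1* have all rightward mutants below 0.

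The 5 genes that were asymmetric in the rightward mutants were all left sided there and all right sided in the inverted mutants, past the threshold in both groups. *Dcaf12l1* was among them, and so were 3 genes chosen here after their values were seen. *Rerg*, which encodes a small GTPase of the RAS family, had −1.05 in rightward and 1.23 in inverted mutants, and its difference of 2.28 (SE 0.21) had an adjusted p of 2.5e-05. *Lpl*, the lipoprotein lipase gene, had −0.42 and 0.63, with a difference of 1.05 (SE 0.11, adjusted p = 0.00011). *Gm35533* had −1.07 and 1.11. For each of the 5 genes, 11 of 11 rightward mutants were on the left and 5 of 5 inverted mutants on the right. The count of 5 was 8 without 19_4, 2 without 18_1 and 3 without 3_7, 17_1 or 22_1, and DESeq2 gave 28. A further noncoding gene, *4930512H18Rik*, was close to this pattern with ratios of 1.37 to 3.86 in inverted mutants and −2.56 to 0.76 in rightward mutants, 10 of which were below 0, and its difference was 4.23 (SE 0.51, adjusted p = 0.00045).

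Few genes were less right sided in inverted than in rightward mutants, and *Ptgfr*, the receptor of prostaglandin F2 alpha, was the only one of them that met the rule for large differences without overlap. On the left it had 5.42 (10_3), 5.47 (32_2), 6.60 (2_7), 6.70 (4_6) and 8.49 CPM (18_2) in inverted mutants, and on the right 3.39, 3.20, 3.84, 4.24 and 3.28 CPM in the same order. In rightward mutants it had 2.43, 3.71 and 6.39 CPM at the lowest, median and highest on the left and 4.46, 5.93 and 6.81 CPM on the right. All 5 inverted mutants were left sided, at −1.36 to −0.66, and 10 of the 11 rightward mutants right sided, with 19_4 at −0.11. The difference was −1.46 (SE 0.23, adjusted p = 0.0038). *Fndc1*, a fibronectin type III gene chosen after its values were seen, had −2.55 to −0.37 against −0.01 to 2.35, also without overlap, and a difference of −2.26 (SE 0.39, adjusted p = 0.0097). *Calca*, the gene of calcitonin and its related peptide and likewise chosen afterwards, had −1.08 (SE 0.23, adjusted p = 0.033) with groups that overlapped. It was called in 7 of the 16 fits without 1 mutant, with an adjusted p of 0.133 at the highest.

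Most heart muscle markers were more right sided in inverted than in rightward mutants, although few passed the test. Of 35 heart tube muscle markers, 4 were called (11.4%, beside 0.938% of all genes tested), all with a positive difference, and 31 were above 0. At an unadjusted p under 0.05, 28 of them had a positive difference, beside 1945 of all 25810 genes. The median difference was 1.08. It came from the inverted mutants, where the median asymmetry was 1.05 and 15 markers were right sided past the threshold, whereas in rightward mutants the median was 0.03. DESeq2 called 15 of the differences, all positive, beside 814 of all 25810 genes. *Actn2*, the sarcomeric alpha-actinin, had ratios of 1.03 (2_7), 1.77 (4_6), 1.88 (10_3), 1.88 (18_2) and 2.29 (32_2) in inverted mutants, and −2.11, 0.09 and 1.93 at the lowest, median and highest of rightward mutants. The rightward mutants overlapped the inverted ones and lay on both sides of 0, and the difference was 1.76 (SE 0.40, adjusted p = 0.042). *Tnni3*, the cardiac troponin I gene, had 1.49 (adjusted p = 0.028), *Hspb2*, a small heat shock protein gene, 1.70 (adjusted p = 0.044) and *Csrp3*, a gene of the sarcomeric Z disc, 1.31 (adjusted p = 0.043). *Hspb8* of the same family as *Hspb2* had 1.12 (adjusted p = 0.045). *Hspb2* and *Tnni3* share 62.1% and 15.8% of their exonic bases with *Cryab* and *Dnaaf3*. Of these genes, *Actn2*, *Hspb2*, *Csrp3* and *Hspb8* were called in 4 of the 16 fits without 1 mutant and *Tnni3* in 9, with an adjusted p of 0.160 at the highest.

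**Figure D4:**
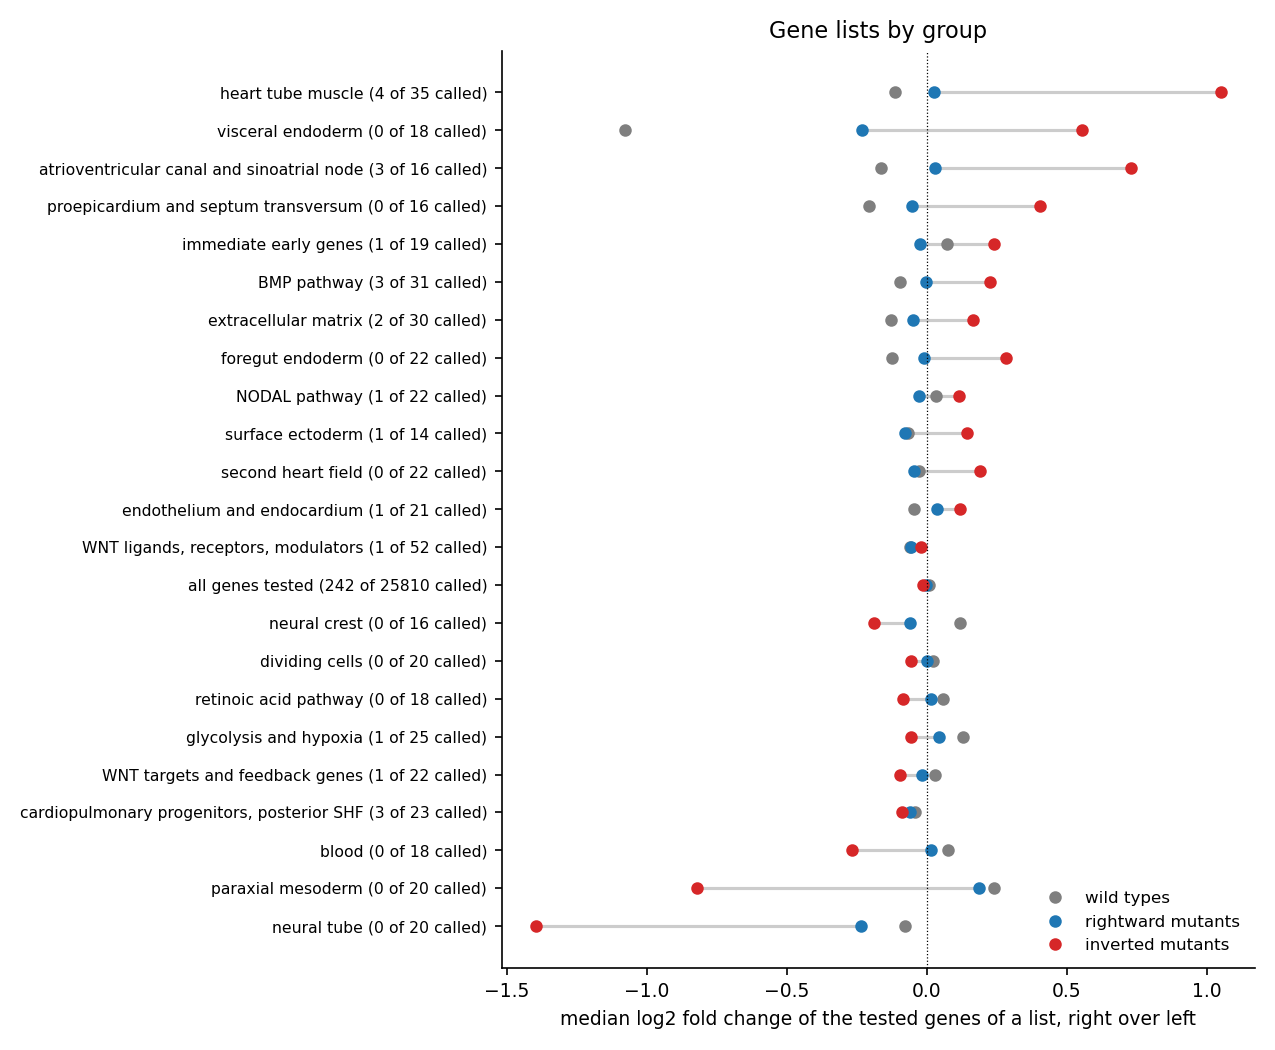
Median asymmetry (log2 fold change of right over left) of each gene list in inverted mutants and in rightward mutants. Heart tube muscle stands at 1.05 in inverted and 0.03 in rightward mutants, neural tube at −1.40 and −0.23, and the list medians of the rightward mutants lie between −0.23 and 0.19.

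The atrioventricular canal and sinoatrial node list had 3 of 16 members called (18.8%, beside 0.938% of all genes tested), which were *Cacna1d*, *Bmp2* and *Vsnl1*, at a median difference of 0.72. *Vsnl1*, which encodes a calcium sensor of the sinoatrial node, had a difference of 0.73 (SE 0.14, adjusted p = 0.019) with all 5 inverted mutants right sided at 0.36 to 0.98, and an adjusted p of 0.054 without 4_6 and 0.080 without 32_2. *Shox2*, a transcription factor of the sinoatrial node, was right sided past the threshold in the inverted mutants at 1.08 (adjusted p = 0.0095), but its difference of 0.98 (SE 0.24) had an adjusted p of 0.055 by edgeR and of 0.0021 by DESeq2, which called 6 members of the list, all positive. The 16 genes of the proepicardium and septum transversum had a median difference of 0.55, with 0 called by edgeR, 2 by DESeq2 and 6 with a positive difference at an unadjusted p under 0.05. Of all 25810 genes, 1945 had a positive difference at that p and DESeq2 called 814. Of the exonic bases of *Shox2*, 13.4% are shared with *Rsrc1*.

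The summed level of the heart tube muscle markers differed between the sides in the same direction as the genes just named. The log2 ratio of the sum was 0.65, 0.85, 1.01, 1.18 and 1.35 in the inverted mutants, at 2594 to 4805 CPM on the left and 4692 to 9511 CPM on the right. In the 11 rightward mutants it ranged from −1.33 (2_2) to 1.28 (19_4) with a mean of 0.02 ± 0.65 (SD), at 2807 to 9201 CPM on the left and 1117 to 10110 CPM on the right. In the 5 wild types it ranged from −1.53 to 0.96. None of the 35 markers was at 0 in a mutant library. A fit with this sum as a covariate, added after the data were seen, called 14 genes, 13 of them among the 242, and the median size of the difference over the 242 genes was 0.52 in place of 0.96, with every sign kept. Of the 34 called genes that are described by embryo, 25 lost their call in that fit, and for 15 of these the difference shrank by more than 1.5 times (*Ccn4*, *Hspb8*, *Bmp2*, *Wnt11*, *Fitm1*, *Cacna1d*, *Gucy1b1*, *Bmp4*, *Actn2*, *Hspb2*, *Tnni3*, *Csrp3*, *Vsnl1*, *Tnc* and *Perp*). The others that lost it were *Ptgfr*, *Lefty2*, *Osr1*, *Rgs9bp*, *Col5a1*, *Tek*, *Hk1*, *Jun*, *Fndc1* and *Calca*. Of these, *Fndc1* was at −2.65, *Calca* at −1.04, *Tek* at 0.47 and *Jun* at 0.36, near or beyond their differences without the covariate. *Actn2*, *Hspb2*, *Tnni3* and *Csrp3* are themselves part of the sum, which largely fixes their loss.

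Most markers of the neural tube and of the paraxial mesoderm had negative differences, none of which passed the test of edgeR. The neural tube sum had ratios of −0.90 to −0.22 in the 5 inverted mutants, at 417.6 to 608.7 CPM on the left and 301.3 to 517.6 CPM on the right, and −0.79 to 0.71 in rightward mutants. Of its 20 markers, *Neurog2*, *Dbx1*, *Sox1*, *Zic1*, *Olig3* and *Olig2* were at 0 in at least 1 mutant library, all 20 had a negative difference with a median of −1.11, and 0 were called by edgeR or by DESeq2, with 3 at an unadjusted p under 0.05. The paraxial mesoderm sum had −1.15 to −0.19 in inverted and −0.89 to 1.10 in rightward mutants, *Mesp2*, *Ripply2* and *Msgn1* were at 0 in a mutant library, and of 20 members tested, 16 had a negative and 4 a positive difference, 0 were called by edgeR and 2 by DESeq2, with 6 at an unadjusted p under 0.05 and a negative difference. Of all 25810 genes, 1221 had a negative difference at an unadjusted p under 0.05 and DESeq2 called 814. With the neural tube sum as a covariate, also added after the data were seen, 17 genes were called and the median size of the difference over the 242 genes was 0.74. Of the 34 genes 23 lost their call with it, and the difference shrank by more than 1.5 times for *Bmp4*, *Tnni3* and *Vsnl1* among them. The fits with either sum and all 16 fits without 1 mutant called 12 genes in common, and these included *4930512H18Rik*, *Ntsr1*, *Nptx2*, *Dcaf12l1*, *Rerg*, *Gm35533*, *Bmper*, *Tecrl*, *Ddc*, *Prnp* and *Lpl*. *Lefty2*, *Bmp2* and *Ptgfr* were not among them, at 5.28 (adjusted p = 0.218), 0.81 (adjusted p = 0.103) and −1.07 (adjusted p = 0.316) with the muscle sum.

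**Figure D5:**
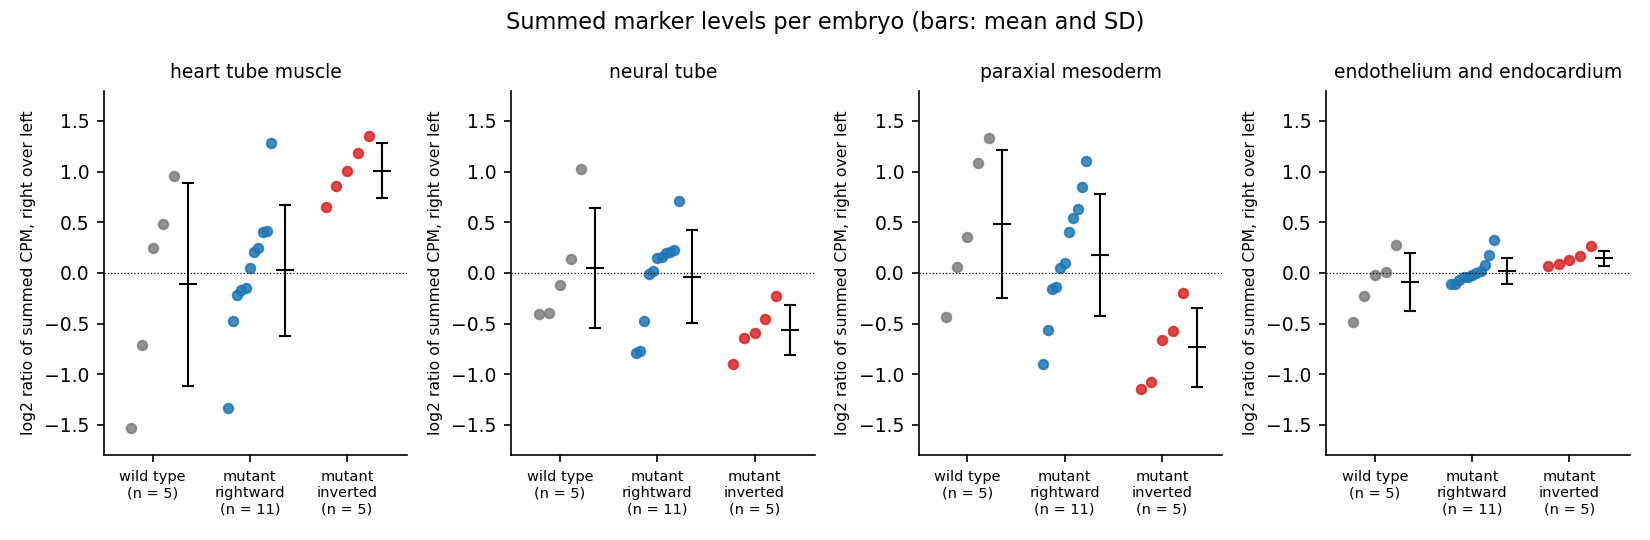
Log2 ratio of right over left of the summed CPM of markers of heart tube muscle, neural tube, paraxial mesoderm and endothelium, 1 point per embryo, in inverted mutants, rightward mutants and wild types. The 5 inverted mutants lie at 0.65 to 1.35 for heart tube muscle and below 0 for neural tube and paraxial mesoderm, and the rightward mutants spread over both sides of 0.

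Other lists held single genes. In the extracellular matrix list, 2 of 30 members were called (6.67%, beside 0.938% of all genes tested), *Col5a1* at 0.91 (SE 0.14, adjusted p = 0.0038) and *Tnc* at 0.87 (SE 0.20, adjusted p = 0.043), both left sided in 10 of 11 rightward mutants, and DESeq2 called 4. The endothelium list had *Tek*, an angiopoietin receptor, at 0.52 (adjusted p = 0.042), the surface ectoderm list *Perp* at 0.70 (adjusted p = 0.026), the glycolysis list *Hk1* at 1.00 (adjusted p = 0.0033) and the immediate early genes *Jun* at 0.33 (adjusted p = 0.044). Each was the only member called, of 21, 14, 25 and 19 tested (4.76%, 7.14%, 4% and 5.26%, beside the same 0.938%), and DESeq2 called 3 of the last list and 1 of each of the others. The glycolysis list as a whole did not go with *Hk1*, since 18 of its 25 differences were negative, 9 were negative and 2 positive at an unadjusted p under 0.05, and its median was −0.09. *Perp* had an adjusted p of 0.071 without 4_6, 0.112 without 18_2 and 0.106 without 32_2, and *Tnc*, *Jun* and *Tek* were called in 3, 6 and 7 of the 16 fits without 1 mutant. No member was called by edgeR of the lists of the retinoic acid pathway (18 tested, 4 with an unadjusted p under 0.05), foregut endoderm (22 and 8), visceral endoderm (18 and 1), blood (18 and 0), neural crest (16 and 2) and dividing cells (20 and 3). DESeq2 called 1 of the retinoic acid list, 4 of foregut endoderm, 1 of dividing cells and 0 of the other three. Beside the lists of this paragraph, all 25810 genes held 1945 positive and 1221 negative differences at an unadjusted p under 0.05, and DESeq2 called 814. The differences were positive for all 18 members of visceral endoderm (median 0.84) and for 18 of 22 of foregut endoderm (median 0.22), and negative for all 18 of blood (median −0.27) and for 19 of 20 of dividing cells (median −0.06). The summed visceral endoderm markers had log2 ratios of −0.89 to 3.17 in inverted and −1.26 to 2.25 in rightward mutants, and the summed blood markers −1.09 to 0.97 and −0.94 to 0.87, so the groups overlapped in both. The part of these tissues in the results was not tested.

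Of 19 genes that the study names for its transcriptomics, 6 had a positive difference past the threshold and 1 a negative one (36.8%, beside 0.938% of all genes tested). That list was chosen on these libraries and is not independent evidence. DESeq2 called 10 of the list, with *Gal*, *Shox2* and *Ism1* besides, and 814 of all 25810 genes. The 7 called by edgeR were *Lefty2*, *Bmp2*, *Wnt11*, *Ccn4*, *Osr1*, *Hspb8* and *Ptgfr*. *Gal*, which encodes the neuropeptide galanin, was right sided in all 5 inverted mutants at 1.21 to 2.84, but the rightward mutants ran from −3.52 to 1.93 and the difference of 2.13 (SE 0.55) had an adjusted p of 0.078 by edgeR and of 0.013 by DESeq2. *Pitx1*, a homeobox gene, had 1.17 (SE 0.60, adjusted p = 0.455), *Postn*, a matrix gene, 1.19 (SE 0.66, adjusted p = 0.489), *Retreg1* 0.94 (SE 0.53, adjusted p = 0.508) and *Misp3* 0.32 (SE 0.71, adjusted p = 0.915). In these 4 genes the inverted mutants had values on both sides of 0. The study reports them from other sets of embryos. It compared its situs solitus cluster, which holds wild types and mutants, with situs inversus totalis and with heterotaxy.

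Levels were also compared within 1 side, with sex in the model, which asks on which side the mutants differ. On the left, 2 of 24324 genes were called (0.00822%), both lower in inverted mutants, among them *Nptx2* at −1.32 (SE 0.19, adjusted p = 0.028). On the right, 2 of 24149 were called (0.00828%), both higher, among them *4930512H18Rik* at 1.84 (SE 0.25, adjusted p = 0.019). Without sex in the model the left had 3 calls and the right 0 by edgeR (984 at an unadjusted p under 0.05), and with 1 mutant left out the left had 1 (without 1_6) to 11 (without 19_4) and the right 0 (without 3_7) to 7 (without 15_5). Of the 227 genes with a positive difference, all had a lower mean CPM on the left and 224 a higher one on the right in inverted mutants, with median log2 differences of −0.47 and 0.39 from the fits, and all 15 with a negative difference were higher on the left and lower on the right. Since these genes were chosen for that difference, the choice largely fixes the counts, which test nothing.

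The wild types loop to the right and were set against the rightward mutants by the same measure. Here 0 of 26335 genes were called by edgeR (0%) and 0 by DESeq2, and 800 had an unadjusted p under 0.05. *Lefty2* differed by −0.61 between the 2 groups. Of the 242 genes, 204 had the same sign of asymmetry in wild types as in rightward mutants, a count that was not made over all genes tested. The inverted mutants against the wild types gave 135 genes, 120 positive and 15 negative, of which 93 were among the 242. Both comparisons use the same inverted mutants, so part of that overlap is built in.

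The exact permutation test over embryos, which needs no model, was run on every gene beside the fit. At a two-sided exact p under 0.05 it found 3257 of 25810 genes (12.6%), and 80 of them had the smallest p of 0.000229. After Benjamini-Hochberg adjustment 0 were below 0.05 and the lowest value was 0.0739. With 4368 splits no gene can fall below 0.000229, and the 80 genes at that limit set the lowest adjusted value. The 0 is bound by that limit of the design and does not test the calls of the 242 genes. Whether they hold without the model's shared estimate of the spread was not tested.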

How the data were processed

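RNA of paired left and right heart fields was sequenced from polyadenylated transcripts (10 ng of total RNA, a low-input kit, Illumina NovaSeq). The authors trimmed adapters, removed duplicates, mapped what was left with STAR (GRCm39) and deposited raw counts per gene from featureCounts (Subread 2.0.6 in the submitters' processing notes), without normalization or a filter. The strand setting is not given in the sources used here. The table held 56953 genes, of which 12119 were at 0 throughout, and 56310 identifiers had a name in the annotation.

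The deposited counts were scaled by TMM and tested in R 4.3.3 with edgeR 4.0.16 (quasi-likelihood F test, legacy dispersions). Its filterByExpr function took 5 as the minimum count, 10 as the minimum total, 50 as the size of a large group and 0.2 as the smallest share. Benjamini-Hochberg adjustment ran over all genes tested. The fit held the 32 mutant libraries with the embryo as a block, since the labels name the embryo of each library. As a check of the pairing, the left and right residuals of a mutant over 2000 genes correlated at −0.083 to 0.748 (median 0.321), above 0.1 in 14 of 16. Levels within a side had sex as a covariate. CPM used the effective library size, and the log2 ratios of single embryos had a prior count of 2. Single genes were tested by exact two-sided permutation over embryos. No library was a copy of another, the lowest chi-square per gene between any 2 being 8.15. The limit given for a count of 0 covers counting error only, and SD and SE cover the spread between embryos.

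The members and lists were chosen with earlier results of these data known. Named genes were those the study names, up to 12 called genes in each direction by size (a mean of at least 200 counts in a group, embryos that do not overlap, no clone name), up to 4 called members of each list, and *Ccdc40*. Others are said to be chosen after their values were seen. Some genes are not reported here and were left out of the lists and of the named genes, but not of the fits. Lists are described by counts and medians, with no set test.

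Alternatives were DESeq2 1.42.0, its size factors in edgeR, library size alone, other filters, no replicate block, all 42 libraries, males alone, a side by sex term, newer or robust dispersions, wild types as the reference, other prior counts and each embryo left out. Covariates of muscle and neural tube markers were chosen after seeing the data. The scripts were tested on simulated counts first. Promoters were read from the GRCm39 genome. Transcriptomic clusters of the study were not used here.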

Additional observations from a re-analysis of the deposited data

Results flagged for a closer look

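The difference of asymmetry between inverted and rightward mutants passed the test at 242 genes, and at 34 of the 52 genes that are described by embryo. The largest among these 34 were *Lefty2* at 6.09, *4930512H18Rik* at 4.23, *Nptx2* at 2.40, *Dcaf12l1* at 2.38, *Rerg* at 2.28 and *Gm35533* at 2.17. Values between 1 and 2 belonged to *Wnt11* (1.92), *Actn2* (1.76), *Hspb2* (1.70), *Bmper* (1.62), *Fitm1* (1.60), *Cacna1d* (1.60), *Tecrl* (1.52), *Tnni3* (1.49), *Ccn4* (1.44), *Rgs9bp* (1.44), *Gucy1b1* (1.34), *Bmp2* (1.31), *Csrp3* (1.31), *Hspb8* (1.12), *Lpl* (1.05), *Osr1* (1.04) and *Hk1* (1.00). Smaller positive differences were those of *Bmp4* (0.94), *Col5a1* (0.91), *Tnc* (0.87), *Vsnl1* (0.73), *Perp* (0.70), *Tek* (0.52) and *Jun* (0.33). The negative ones were *Fndc1* (−2.26), *Ptgfr* (−1.46), *D030025E07Rik* (−1.20) and *Calca* (−1.08).

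Single embryos stood far from the rest of their group by Dixon's criterion in 5 of 104 groups of values examined, and chance marks about 1 in 20. The inverted mutant 18_2 had a log2 ratio of −1.36 for *Ptgfr*, with the other inverted mutants at −0.77 to −0.66. The inverted mutant 2_7 had 0.21 for *Shox2*, with the others at 1.16 to 1.46. For *Skil*, the inverted mutant 10_3 had 0.0062 and the others 0.45 to 0.53. Among wild types, 8_1 had 1.07 for *Ptgfr* (others −0.03 to 0.29) and 10_1 had 2.53 for *Wnt16* (others −0.03 to 0.58).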

How the results depend on the processing

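The number of genes with a different asymmetry, 242 in the report, was 814 with DESeq2 (235 in common), 19 with no replicate block, 82 with all 42 libraries in the fit, 68 in males alone, 135 against wild types, 14 with the muscle covariate and 17 with the neural tube covariate. Leaving out 1 embryo gave 72 to 563. It was within 1.5 times of 242 with DESeq2 size factors (251), library size alone (205), no filter (344), at least 10 counts in every library (258), a side by sex term (232) and newer (325) or robust (221) dispersions. Right against left in inverted mutants (525) gave 1552 genes with DESeq2, 6 with no replicate block, 0 by edgeR with either covariate (1629 and 1660 at an unadjusted p under 0.05) and 49 to 591 with 1 embryo left out. In rightward mutants (5) it gave 28 with DESeq2, 8 with no filter, 2 with no replicate block, 16 with the muscle covariate and 2 to 8 with 1 embryo left out. The left level (2) had 126 genes with DESeq2 and 1 to 11 with 1 embryo left out, and the right level (2) had 35 with DESeq2, 5 with no filter, 0 without sex and 0 to 7 with 1 embryo left out. The rightward mutants against wild types had 0 by edgeR (800 at an unadjusted p under 0.05) and 0 with DESeq2, its size factors, no filter, no replicate block and each embryo left out, the alternatives run for them. The causes of these changes were not tested.

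All 34 of the single genes called were called with DESeq2 too, which also called 6 others of the 52 (*Ism1*, *Gal*, *Shox2*, *Cfc1*, *Furin* and *Skil*), and 23 lost their call with no replicate block. In males alone 21 of the 34 lost it. Among them were *Ccn4* at 1.63 (adjusted p = 0.168), *Wnt11* at 2.095 (0.087) and *Ptgfr* at −1.515 (0.054), whose differences were no smaller than in both sexes. With library size alone 6 lost it (*Hspb8*, *Bmp4*, *Hspb2*, *Csrp3*, *Tnc* and *Tek*). With 1 mutant left out, edgeR also called genes that it did not call with all mutants. These were *Cfc1* and *Shox2* in 3 of 16 fits each, *Furin* and *Skil* in 2 each, and *Gal*, *Fzd10* and *Wnt2* in 1 each. The sign turned in none of the 34 genes called. It turned for *Lefty1* in males alone (−1.47), with the muscle (−0.19) and neural tube covariates (−0.62) and when 2_7, 3_7 or 32_2 was left out (−0.55 to 0.94 over the embryos left out), for *Ccdc40* with the muscle covariate (0.073) and without 10_3 or 18_2 (−0.12 to 0.036), for *Wnt2* with the muscle covariate (−0.25) and for *Misp3* without 10_3 (−0.29 to 0.82). The ratios of genes at a low level, such as *Lefty2* and *Nodal*, rest on few counts in some libraries, and every comparison with the inverted group rests on 5 embryos.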

Other observations

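A few further genes that were more right sided in inverted mutants are named here after their values were seen, and no shared function was tested. *Ddc*, which encodes the enzyme that makes dopamine and serotonin from their precursors, had asymmetries of 0.83 in inverted and −0.32 in rightward mutants and a difference of 1.14 (SE 0.12, adjusted p = 0.00013, edgeR's quasi-likelihood test), with groups that did not overlap. *Ntsr1*, the neurotensin receptor gene, had 1.33 and −1.10 and a difference of 2.43 (SE 0.34, adjusted p = 0.0019), likewise without overlap. *Prnp*, the prion protein gene, had 0.85 and −0.24 with a difference of 1.10 (SE 0.14, adjusted p = 0.00071). *Slc17a7*, a vesicular glutamate transporter gene, had a fitted difference of 5.94 (SE 1.07, adjusted p = 0.012) that rests on few counts, with a mean of 0.80 counts on the left and 13.6 on the right of inverted mutants against 11 and 2.55 in rightward mutants.

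Among the 15 genes that moved the other way, 3 more are named after their values were seen. *Unc5a*, a netrin receptor gene, had a difference of −1.52 (SE 0.30, adjusted p = 0.021), *Kcng1*, a potassium channel subunit gene, −1.24 (SE 0.26, adjusted p = 0.026), and *Kcnip1*, a potassium channel interacting protein gene, −1.10 (SE 0.22, adjusted p = 0.023). Other genes of ion channels were called with a positive difference, such as *Kcnq3* at 2.14. In *Unc5a*, *Kcng1* and *Kcnip1* the ratios of inverted and rightward mutants overlapped.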
